A study of Mus musculus with 10 samples.

Results

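Beta-tubulin is the protein that paclitaxel binds, and mice make it from a small family of genes, the isotypes. The 8 isotype genes described here, Tubb1, Tubb2a, Tubb2b, Tubb3, Tubb4a, Tubb4b, Tubb5 and Tubb6, were found by their symbols among 24411 genes listed. Of these, 7 had enough reads to be tested and Tubb1 did not, among 13287 genes tested in all. The data are RNA sequencing of the lumbar spinal cord of mice given paclitaxel, a microtubule-stabilising cancer drug that causes a painful peripheral neuropathy, or its vehicle, with 5 libraries in each group. The labels name no transgene or other treatment, and the sources used here do not give strain, sex, age, dose or time after dosing. They also do not say whether the 5 libraries of a group came from separate animals, so a p-value here reflects the spread between libraries alone, which may be technical. The cord is a mixture of cell types, and in such bulk samples fewer cells of a type and less RNA per cell cannot be told apart. Total counts ran from 3676259 to 7791594 per library. In the paclitaxel group replicate 3 stood apart from the other libraries in the genes described here. The fold changes of the single isotypes, and several other results, are therefore given with and without it.

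Beta-tubulin pairs with alpha-tubulin, and the dimers add end to end into the hollow filaments called microtubules, along which axons carry their cargo. Paclitaxel binds a pocket of beta-tubulin on the inner face of the filament and keeps it from coming apart. The isotypes are alike over most of their length and differ mainly in the acidic tail at the C terminus, which carries polyglutamylation and other marks and is read by motors and associated proteins. Cells adjust tubulin mRNA to the amount of free dimer: the factor TTC5 binds the first residues of tubulin as they leave the ribosome, and the mRNA is then degraded.

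The coding sequences are shown first at their 5′ ends, because the residues read by TTC5 lie there. The capitals mark the first 4 codons, and the encoded residues were the same in 8 of 8 isotypes although the codons were not.
Tubb4a: ATGCGGGAAATCgtgcacctgcaagccggt
Tubb3: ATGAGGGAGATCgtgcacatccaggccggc
Tubb2a: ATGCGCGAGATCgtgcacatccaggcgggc
Tubb2b: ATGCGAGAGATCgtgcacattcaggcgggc
Tubb4b: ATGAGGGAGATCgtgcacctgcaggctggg
Tubb5: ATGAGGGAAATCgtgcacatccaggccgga
These stretches are from GENCODE M21 transcripts on GRCm38 (mm10) and lie in the first coding exon, on the minus strand except for Tubb3. They are at chr17:57087484-57087513 for Tubb4a, chr8:123411606-123411635 for Tubb3, chr13:34077900-34077929 for Tubb2a, chr13:34130204-34130233 for Tubb2b, chr2:25224561-25224590 for Tubb4b and chr17:35838024-35838053 for Tubb5.

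The 3′ ends of the coding sequences, which encode the C-terminal tails, show how far the isotypes can be told apart by sequence. Each line gives the last 60 coding bases with the stop codon. In the Tubb2a and Tubb2b lines the capitals mark the bases that differ between these 2 genes. In the other lines they mark the bases that differ from Tubb2a, or have no counterpart in it, in an alignment of the whole coding sequences.
Tubb2a: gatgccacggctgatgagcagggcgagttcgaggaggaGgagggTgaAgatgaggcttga
Tubb2b: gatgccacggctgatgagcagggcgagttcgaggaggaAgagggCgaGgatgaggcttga
Tubb3: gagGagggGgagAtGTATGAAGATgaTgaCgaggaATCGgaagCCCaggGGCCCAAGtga
Tubb4a: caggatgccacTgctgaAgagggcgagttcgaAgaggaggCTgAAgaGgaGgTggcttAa
Tubb4b: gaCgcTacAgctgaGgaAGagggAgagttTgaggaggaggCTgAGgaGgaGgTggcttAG
Tubb5: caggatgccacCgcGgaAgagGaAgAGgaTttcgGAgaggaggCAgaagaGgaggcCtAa
Between Tubb2a and Tubb2b 3 of these bases differed, whereas 30 of the Tubb3 bases differed from Tubb2a or had no counterpart in it. The stretches lie in the last coding exon at chr13:34074468-34074527 for Tubb2a, chr13:34127471-34127530 for Tubb2b, chr8:123421623-123421682 for Tubb3, chr17:57080690-57080749 for Tubb4a, chr2:25222308-25222367 for Tubb4b and chr17:35834982-35835041 for Tubb5.

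Over the whole coding sequence of 1338 bases, Tubb2a and Tubb2b differed at 47 positions (96.5% identity), with one run of 551 identical bases. The genes are neighbours on chromosome 13, Tubb2a from 34074278 to 34078008 and Tubb2b from 34127008 to 34130354 (RefSeq genes on GRCm38). Of all 50-base windows of the Tubb2a transcript, 45.6% also occurred in Tubb2b. A single read of at most 50 bases from there cannot be assigned to one of them by sequence. The deposited values show this split. Tubb2a and Tubb2b had counts that were not whole in 10 of 10 libraries, while their sum was whole to within 0.005 in 10 of 10. The other 6 isotypes had whole counts in every library. Values of Tubb2a and Tubb2b taken singly are therefore uncertain, and their sum is given beside them. Tubb4b shared 43.6% of its windows with the processed pseudogene Tubb4b-ps1, and 4.65% with genes that have a row in the deposited table. For Tubb3, Tubb4a and Tubb5, at most 0.184% of windows occurred in another gene.

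The cord expressed 6 isotypes at a high level, Tubb6 at a low level, and Tubb1 hardly at all. Levels of different genes are compared here per length, as CPM (read counts scaled to library size, the usual depth-corrected unit) per kilobase of transcript, over all 10 libraries. Tubb4a, an isotype of the central nervous system that is abundant in myelinating oligodendrocytes and also present in neurons, was highest at 691 ± 68.4 CPM per kb (SD, n = 10). Tubb3, the isotype long used as a marker of neurons, followed at 348 ± 31.1 CPM per kb (SD, n = 10). Tubb2a, a major isotype of neurons, was at 273 ± 25.9 CPM per kb (SD, n = 10). Tubb4b, a broadly expressed isotype also found in cilia, was at 247 ± 28.9 CPM per kb (SD, n = 10).

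Lower in the order came Tubb5, the isotype made by nearly all cells, at 167 ± 11.5 CPM per kb (SD, n = 10). Tubb2b, best known from the developing nervous system, was at 72.0 ± 10.9 CPM per kb, and Tubb6, a minor isotype of many tissues, at 6.01 ± 1.31 CPM per kb (SD, n = 10 each). Each isotype was above the next in the order in 10 of 10 libraries, at the lengths used here. Tubb5 has 2649 bases in the transcript used and 1705.5 on average over its coding transcripts, and Tubb3 1868 and 1322. A shorter length gives a higher level per length, so the place of Tubb5 below Tubb4b depends on this choice. Within a library the difference between neighbours was 75.5 ± 14.3 CPM per kb for Tubb3 over Tubb2a, 25.8 ± 11.3 for Tubb2a over Tubb4b and 80.1 ± 19.2 for Tubb4b over Tubb5 (SD, n = 10 each). Across libraries the ranges of Tubb3 and Tubb2a, of Tubb2a and Tubb4b, and of Tubb4b and Tubb5 overlapped, so their order holds within each library and not for every pair of different libraries. The ranges of Tubb4a and Tubb3, of Tubb5 and Tubb2b, and of Tubb2b and Tubb6 did not overlap. Tubb1, the isotype of platelets and megakaryocytes, had 1 read in 1 of 10 libraries, below the 3 counts (0.385 to 0.819 CPM, by library) that a count of 0 allows.

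**Figure D1:**
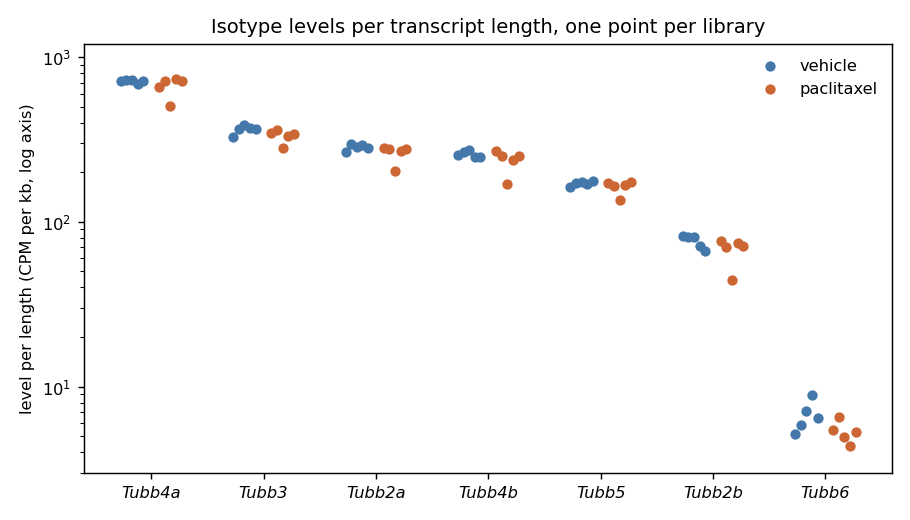
Level of each tested isotype per transcript length (CPM per kilobase, log axis), with one point per library, vehicle and paclitaxel side by side. Tubb4a lies highest, between 506 and 734, and Tubb6 lowest, between 4.35 and 8.89.

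With paclitaxel, 7 of 7 tested isotypes were lower in value than with vehicle, by small amounts, and none passed. Log2 fold changes ran from -0.31 for Tubb6 to -0.07 for Tubb5, with a median of -0.13. Over all genes tested, 50.9% were lower with paclitaxel, and the median log2 fold change was -0.003. With Benjamini-Hochberg adjustment over all genes, edgeR called 0 isotypes at the 0.05 level, against 0% of all genes (smallest adjusted p = 0.792). Before adjustment 1 isotype of 7, Tubb3, had p below 0.05, against 3.12% of all genes called lower (6.07% in either direction). DESeq2 had 0 isotypes, against 4.3% of all genes in either direction. Groups without overlap were found in 0 of 7 isotypes, against 1.09% of all genes (0.625% with paclitaxel lower).

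Tubb3 was measured at 644, 679, 521, 619 and 636 CPM in paclitaxel replicates 1 to 5 and at 614, 680, 727, 698 and 687 CPM in the vehicle replicates. All 5 paclitaxel libraries lay below the vehicle mean of 681 CPM, but vehicle replicate 1 was lower than all of them except replicate 3, and the groups overlapped. In edgeR this was a log2 fold change of -0.14 with SE 0.06 and a 95% interval from -0.26 to -0.01 (unadjusted p = 0.0345, adjusted p = 0.792), a difference of -9.01%, at rank 563 by p among all genes. It was -0.08 without paclitaxel replicate 3 (unadjusted p = 0.105), and -0.07 with GC content and length corrected for (unadjusted p = 0.105). Tubb3 lies on chromosome 8 from 123411553 to 123422015.

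Tubb2a was at 449, 444, 329, 433 and 446 CPM with paclitaxel and at 429, 481, 460, 468 and 450 CPM with vehicle. Apart from paclitaxel replicate 3, every paclitaxel library exceeded the lowest vehicle library. edgeR fitted a log2 fold change of -0.12 with SE 0.07 and a 95% interval from -0.27 to 0.02 (adjusted p = 0.804), and -0.04 without that library. After the GC and length correction it was -0.08.

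Tubb2b was at 168, 153, 97.2, 163 and 157 CPM with paclitaxel and at 178, 177, 177, 156 and 145 CPM with vehicle. Vehicle replicate 5 was the lowest library after paclitaxel replicate 3. Its log2 fold change in edgeR, -0.17 with SE 0.14, had a 95% interval from -0.48 to 0.13 (adjusted p = 0.847). It was -0.05 without paclitaxel replicate 3 and -0.16 after the GC and length correction. With the reads of both genes summed, which removes the uncertain split, edgeR gave -0.14 with SE 0.08 and a 95% interval from -0.32 to 0.04 (adjusted p = 0.813). Tubb2a held 72.6% to 77.2% of the summed counts of the pair with paclitaxel and 70.7% to 75.6% with vehicle.

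Tubb4a (chromosome 17, bases 57080061 to 57087600) had values of 1474, 1593, 1127, 1636 and 1583 CPM with paclitaxel and at 1591, 1619, 1626, 1536 and 1604 CPM with vehicle. The highest of all 10 libraries was paclitaxel replicate 4 and the lowest paclitaxel replicate 3, so the paclitaxel values lay on both sides of the vehicle range. On the log2 scale edgeR gave a fold change of -0.11, SE 0.08, with a 95% interval from -0.28 to 0.07 (adjusted p = 0.842). Without paclitaxel replicate 3 it was -0.02, and -0.05 after the GC and length correction.

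Tubb4b (chromosome 2, bases 25222158 to 25224702) had values of 431, 402, 273, 380 and 401 CPM with paclitaxel and at 407, 422, 438, 398 and 395 CPM with vehicle. Paclitaxel replicates 3 and 4 were below every vehicle library, and replicate 1 was above all vehicle libraries but replicate 3. Its fitted log2 fold change was -0.13, SE 0.10, with a 95% interval from -0.35 to 0.10 (edgeR, adjusted p = 0.847), but -0.03 without paclitaxel replicate 3 and -0.08 after the GC and length correction.

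Tubb5 (chromosome 17, bases 35833920 to 35838301) had the smallest difference. It was at 453, 438, 361, 442 and 460 CPM with paclitaxel and at 433, 455, 461, 447 and 469 CPM with vehicle. Outside paclitaxel replicate 3 the paclitaxel values lay within the vehicle range. A log2 fold change of -0.07 was fitted, SE 0.06, with a 95% interval from -0.19 to 0.04 (edgeR, adjusted p = 0.834). It was -0.01 without paclitaxel replicate 3 and -0.06 after the GC and length correction.

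Tubb6 was at 9.61, 11.5, 8.70, 7.64 and 9.36 CPM with paclitaxel and at 9.04, 10.3, 12.5, 15.6 and 11.4 CPM with vehicle, from 28 to 89 reads per library. Vehicle replicate 4 was the highest library and paclitaxel replicate 4 the lowest. The log2 fold change of Tubb6 was the most negative, -0.31 with SE 0.16 and a 95% interval from -0.63 to 0.01 (edgeR, adjusted p = 0.800). It was -0.19 without vehicle replicate 4, -0.27 without paclitaxel replicate 3 and -0.25 after the GC and length correction. Counting error alone gives a coefficient of variation of 14.97% at this depth in the paclitaxel group, where the spread between libraries was 14.99%. In the vehicle group the spread was 21.3%, above the 12.4% that counting gives. For Tubb4a in the paclitaxel group, counting gives 1.20% and the spread was 14.0%.

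**Figure D2:**
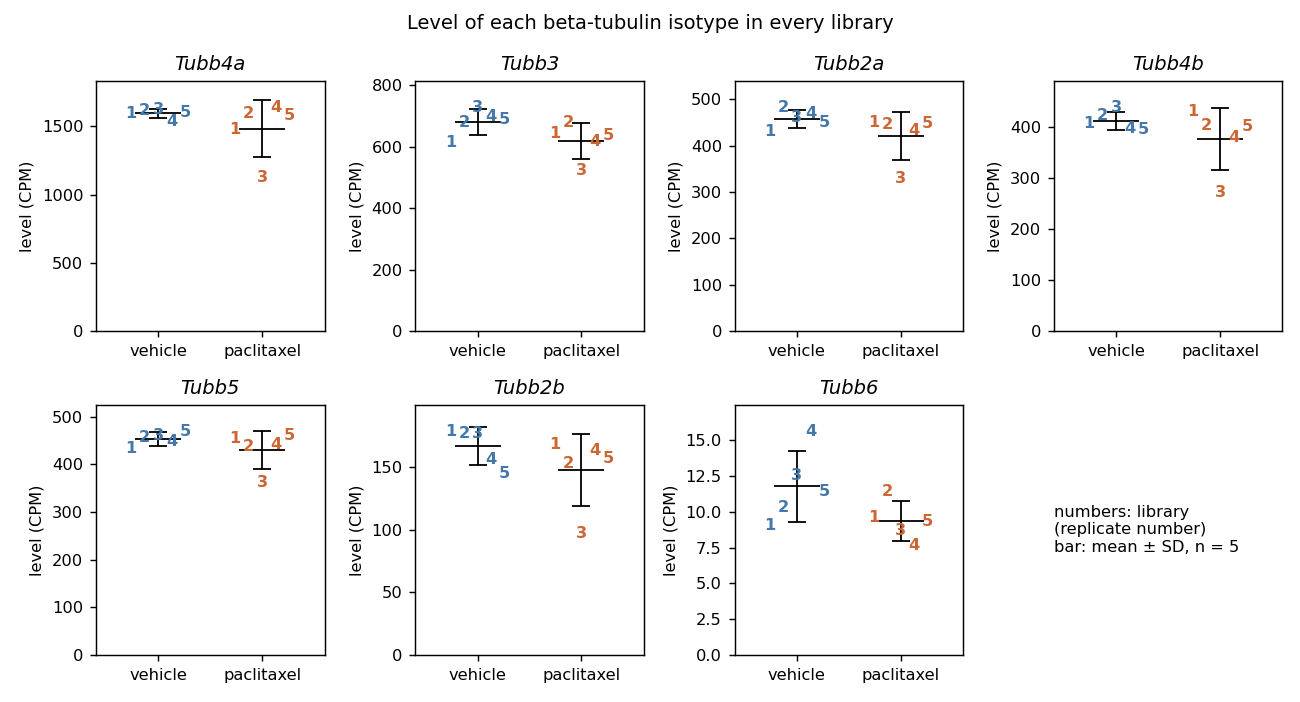
Level of each tested isotype (CPM, axis from 0) in every library; the printed digits are the replicate numbers and the bars the mean ± SD (n = 5). Paclitaxel replicate 3 is the lowest library in every panel except that of Tubb6, where paclitaxel replicate 4 is lowest at 7.64 CPM.

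The intervals limit how large a difference in level could be. Their upper bounds lay at 1.02-fold for Tubb2a, 1.05-fold for Tubb4a, 1.07-fold for Tubb4b, 1.03-fold for Tubb5, 1.10-fold for Tubb2b and 0.992-fold for Tubb3, paclitaxel over vehicle, and for Tubb6 at a difference of 0.998%. The lower bounds reached 0.877-fold for Tubb5, 0.834-fold for Tubb3, 0.829-fold for Tubb2a, 0.821-fold for Tubb4a, 0.785-fold for Tubb4b, 0.716-fold for Tubb2b and 0.648-fold for Tubb6, so lower levels of that size remain within the error.

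**Figure D3:**
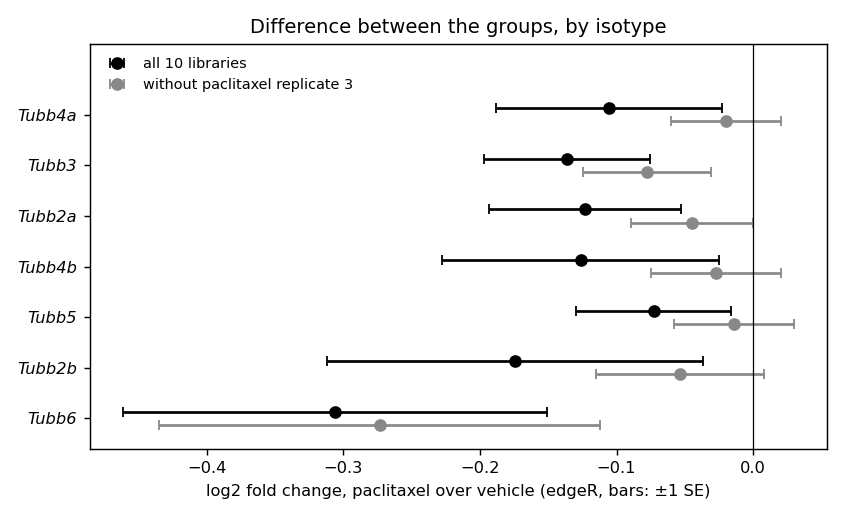
Log2 fold change of each isotype, paclitaxel over vehicle, from edgeR with all 10 libraries (black) and without paclitaxel replicate 3 (grey); bars are ±1 SE. Every point lies below 0, and for the 6 abundant isotypes the grey points lie between -0.08 and -0.01.

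Paclitaxel replicate 3 was the lowest of the 10 libraries for 6 of 7 isotypes. Against the vehicle mean it was lower by 20.2% for Tubb5, by 23.5% for Tubb3, by 28.1% for Tubb2a, by 29.4% for Tubb4a, by 33.8% for Tubb4b and by 41.6% for Tubb2b. Over all genes tested this library was the lowest in 20.02%, and in 27.7% of the 2404 genes with a mean of at least 100 CPM. Summed over the 8 isotypes, beta-tubulin mRNA was at 2717 CPM in this library and between 3628 and 3900 CPM in the other 9. Without it the coefficient of variation of the paclitaxel group fell from 14.0% to 4.38% for Tubb4a and from 12.2% to 1.54% for Tubb2a.

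**Figure D4:**
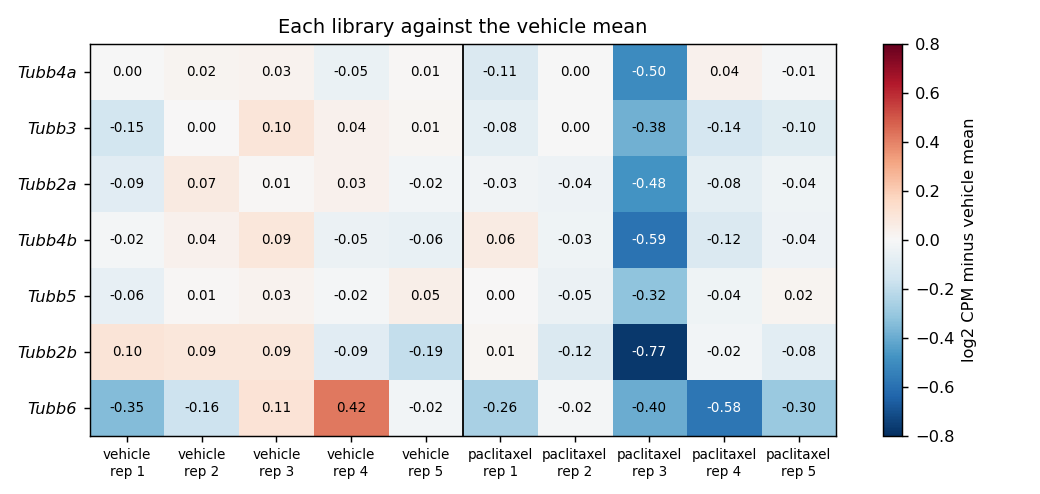
Log2 CPM of each isotype (rows) in each library (columns) minus the vehicle mean, printed in the cells; blue is lower and red higher. The column of paclitaxel replicate 3 runs from -0.77 for Tubb2b to -0.32 for Tubb5.

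Other measures also moved in this library. The 10 neuron markers, all detected, summed to 11361 CPM in paclitaxel replicate 3 and to between 13425 and 14602 CPM in the other libraries. The list did not move as one. The neurofilament genes Nefl, Nefm and Nefh were at 1963, 2998 and 1778 CPM there, below the means of both groups. Gap43, Stmn2 and Uchl1 were also below both means. Rbfox3 (187 CPM), Snap25 (3000 CPM), Syt1 (281 CPM) and Elavl4 (125 CPM) were above both. Markers of the meninges and fibroblasts, all 8 detected, had their highest sum there at 883 CPM, against 375 to 764 CPM. Most of that sum was 1 gene, Ptgds, at 829 CPM. Col1a1, Col3a1, Dcn and Igf2 were below the means of both groups there, and Col1a2 was above them. Endothelial and erythroid markers were lowest there, at 176 CPM (189 to 281 CPM elsewhere) and 62.1 CPM (97.1 to 276 CPM elsewhere), all 8 and all 5 being detected. Immature-neuron markers, all 5 detected, were highest there at 43.7 CPM (25.3 to 36.3 CPM elsewhere). Astrocyte markers summed to 6569 CPM, within the range of the other libraries (6293 to 6959 CPM), but their members moved in opposite directions there. Aqp4 (422 CPM) and Gfap (1077 CPM) were below the means of both groups. Slc1a2, Slc1a3 (171 CPM), Gja1 (380 CPM), Gjb6 (152 CPM), Aldh1l1 and Aldoc were above both. The part of these in the low isotype values was not tested.

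Base composition moved with that library as well. Across 10305 genes with a mean of at least 10 CPM, its deviation from the other libraries correlated with GC content at r = -0.35. This is across genes, which are not independent replicates. Genes in the upper quartile of GC content, 55.2% and above, had a median deviation of -0.12 on the log2 scale, and 4 of 7 isotypes belonged to it (Tubb2a, Tubb3, Tubb4a and Tubb6). Tubb2b, the lowest of the 7 in GC content at 51.2%, had the largest deviation, -0.75, and Tubb6, at 56.6%, the smallest, -0.27.

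Between the groups, the neuron markers had a median log2 fold change of -0.03 (3 higher, 7 lower), and -0.008 without paclitaxel replicate 3 (4 higher, 6 lower), and no member of the list passed. Summed neuron markers ran from 11361 to 14038 CPM with paclitaxel and from 13493 to 14602 CPM with vehicle. Markers of sensory neurons of the dorsal root ganglia, 1 of 7 of which (Mrgprd) had no reads, summed to at most 8.46 CPM in either group. Platelet markers, whose cells use Tubb1, summed to between 6.75 and 9.67 CPM in the paclitaxel libraries and between 7.15 and 9.67 CPM with vehicle.

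No isotype's share of the beta-tubulin pool passed a test between the groups, and all shares overlapped. The share is each isotype's part of the summed beta-tubulin CPM, which does not depend on how libraries are scaled. Tubb4a made up 42.5% ± 1.47 with paclitaxel and 42.2% ± 0.838 with vehicle (SD, n = 5 each; exact permutation test, two-sided, p = 0.794). Tubb3 made up 17.84% ± 0.927 and 18.03% ± 0.813 (SD, n = 5 each; exact p = 0.762). Tubb5 had the largest difference, 12.40% ± 0.589 against 11.99% ± 0.274 (SD, n = 5 each; exact p = 0.246), with 4 of 5 paclitaxel libraries above the vehicle mean.

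Tubb2a was at 12.1% ± 0.221 and 12.1% ± 0.410, Tubb4b at 10.8% ± 0.699 and 10.9% ± 0.298, and Tubb2b at 4.199% ± 0.397 and 4.409% ± 0.391 (paclitaxel then vehicle, SD, n = 5 each). Their exact p-values were 0.770, 0.738 and 0.405. Tubb6 made up 0.271% ± 0.0452 and 0.312% ± 0.0672 (SD, n = 5 each; exact p = 0.349). These 7 tests were not adjusted, and the smallest p the design allows is 0.00794.

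In paclitaxel replicate 3, where the summed level was low, the shares also differed in part from the other libraries. Tubb3 (19.2%) and Tubb5 (13.3%) had their highest shares of all 10 libraries there, and Tubb2b (3.58%) and Tubb4b (10.04%) their lowest. Without this library the difference in the Tubb3 share was -0.523 percentage points (-0.187 with it) and that in the Tubb5 share 0.185 points (0.410 with it). Per transcript length, Tubb4a made up 38.4% ± 1.43 and 38.2% ± 0.840 of the pool, Tubb3 19.3% ± 0.989 and 19.4% ± 0.848, and Tubb5 9.44% ± 0.451 and 9.11% ± 0.217 (paclitaxel then vehicle, SD, n = 5 each). Exact p-values for the 7 shares per length ran from 0.198 for Tubb5 to 0.841 for Tubb2a.

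**Figure D5:**
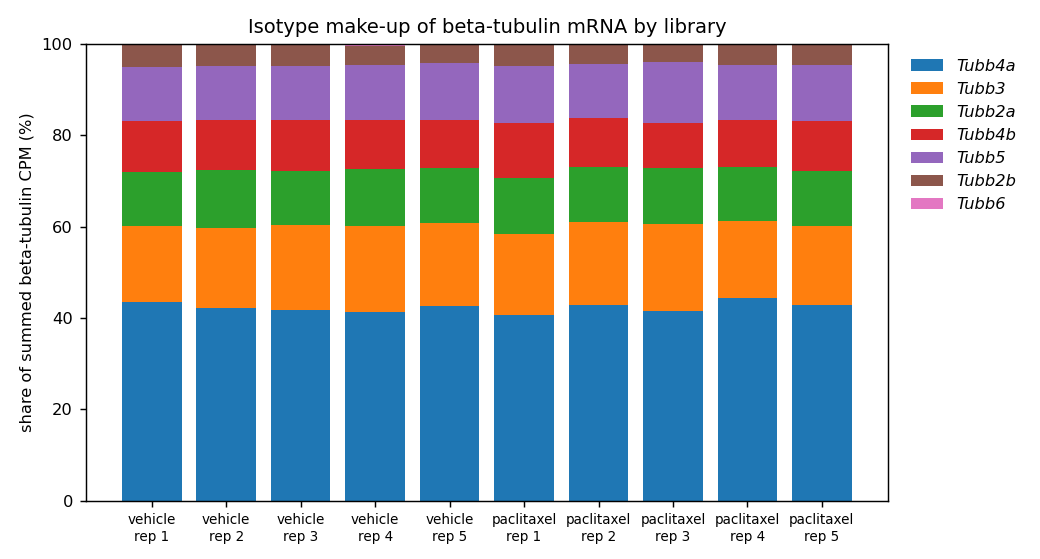
Share of each isotype in the summed beta-tubulin CPM (percent) as stacked bars, one per library. Tubb4a takes 40.6% to 44.5% of every bar, and Tubb6 (at most 0.42%) is too small to be seen.

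Alpha-tubulin genes, which encode the partner in the dimer, were 7 in the list, of which Tuba3a and Tuba3b had no reads and 5 were tested (2 higher, 3 lower, median log2 fold change -0.05; 0 passed). Without paclitaxel replicate 3 the median turned to 0.02 (3 higher, 2 lower). At an unadjusted p under 0.05 there was 1, Tuba8, a minor alpha isotype, with 7.66 ± 1.20 CPM under paclitaxel against 5.94 ± 0.704 CPM (SD, n = 5 each). On the log2 scale this gene differed by 0.37 with SE 0.17 (edgeR, unadjusted p = 0.0357, adjusted p = 0.792), and 6.37 CPM were measured in paclitaxel replicate 3. The abundant Tuba1b and Tuba4a had log2 fold changes of -0.05 and -0.09 (-0.02 and -0.03 without paclitaxel replicate 3). The gamma-, delta- and epsilon-tubulin genes, which serve centrosomes and basal bodies, had 4 of 4 tested (2 higher, 2 lower, median -0.08; 0 passed). In paclitaxel replicate 3 the alpha-tubulin sum was also the lowest of all libraries, at 1847 CPM against 2272 to 2406 CPM. The ratio of summed alpha- to beta-tubulin CPM was 0.645 ± 0.0222 with paclitaxel and 0.623 ± 0.0118 with vehicle (SD, n = 5 each), with overlapping groups.

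Genes that fold and assemble the dimer did not pass either. The cytosolic chaperonin CCT, in which new tubulin folds, had 8 of 8 subunits tested (2 higher, 6 lower, median -0.02), with Cct5 at -0.07 (-0.03 without vehicle replicate 1), Cct6a at -0.06 (-0.01 without paclitaxel replicate 5) and Cct4 at 0.04 (0.01 without vehicle replicate 3) on the log2 scale. Prefoldin, which hands nascent tubulin to CCT, had 6 of 6 tested (1 higher, 5 lower, median -0.05, and -0.08 without paclitaxel replicate 3). Its subunit Vbp1 had 65.9 ± 4.95 CPM under paclitaxel against 57.7 ± 5.58 CPM (SD, n = 5 each). This was a log2 fold change of 0.19 with SE 0.08 (edgeR, unadjusted p = 0.0206, adjusted p = 0.792), and 0.08 after the GC and length correction. Pfdn2 and Pfdn6 had log2 fold changes of -0.13 each, and Pfdn6 of -0.07 without vehicle replicate 3 and -0.06 after the correction.

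The tubulin cofactors, which join alpha- to beta-tubulin after CCT, had 7 of 7 genes tested with their GTPase partner Arl2 (3 higher, 4 lower, median -0.002, and 0.01 without paclitaxel replicate 3). Tbca, which holds the beta subunit, was at 0.14 (SE 0.09; 0.21 without vehicle replicate 1), Tbce, which holds the alpha subunit, at 0.13 and Arl2 at -0.14 on the log2 scale. Without paclitaxel replicate 3 Tbce was at 0.06 and Arl2 at -0.05. The autoregulation genes had 4 of 4 tested (2 higher, 2 lower, median 0.01, and -0.02 without paclitaxel replicate 3). Ttc5, named for its role and not for its p, had 32.7 ± 2.93 CPM under paclitaxel against 32.8 ± 2.25 CPM (SD, n = 5 each), with a 95% interval of the log2 fold change from -0.18 to 0.18 (edgeR, adjusted p = 0.998). Its adaptor gene Scaper was at -0.02 and Cnot1, of the deadenylase complex, at 0.02, both changing sign when single libraries were left out. Cnot11, of the same complex, was at 0.13 (0.04 without paclitaxel replicate 3).

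Enzymes that add or trim glutamate and glycine on tubulin tails had 9 of 13 genes tested (5 higher, 4 lower, median 0.02; 0 passed). Without paclitaxel replicate 3, when 11 were tested, the median turned to -0.05 (5 higher, 6 lower). The glutamylase gene Ttll4 had a log2 fold change of -0.22 (SE 0.14), the deglutamylase gene Agtpbp1 of -0.08 (SE 0.06; -0.05 without vehicle replicate 1) and its relative Agbl3 of 0.19 (SE 0.18; 0.08 without paclitaxel replicate 3). Tuba8, of 5 tested alpha-tubulin genes, and Vbp1, of 6 prefoldin genes, were the only ones of these lists at an unadjusted edgeR p under 0.05. The other lists had 0, with 4 gamma-, delta- and epsilon-tubulin, 8 CCT, 7 cofactor, 4 autoregulation and 9 tail-enzyme genes tested. Both genes were higher with paclitaxel. Of all genes tested, 6.07% were below that p in either direction (2.94% higher, 3.12% lower).

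The 6 abundant isotypes varied together across the 10 libraries, and this rested on paclitaxel replicate 3. Pearson's r of log2 CPM over the 10 libraries ran from 0.72 to 0.95 for the 15 pairs of the 6 abundant isotypes (median 0.90; Spearman's rho from 0.05 to 0.88). Without paclitaxel replicate 3 the same pairs had a median r of 0.10, from -0.28 to 0.73. Tubb6 with the other 6 had r from 0.18 to 0.71 (median 0.36), and from -0.27 to 0.85 without that library. These values are descriptions, with no test. The libraries differed in depth, and the deviation of paclitaxel replicate 3 correlated with GC content across genes.

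The genes outside the family with the pattern most like an isotype were found by the same r among 10314 genes with a mean of at least 10 CPM, 3 for each isotype. For Tubb3 they were Rell2, Scrt1, which encodes a neuronal zinc finger repressor, and Slc39a3, a zinc transporter gene (r = 0.98 each, and 0.96, 0.94 and 0.94 without paclitaxel replicate 3). For Tubb4b they were the neurofilament genes Nefh (0.99, and 0.95 without it) and Nefl (0.97 and 0.67) and the glycolytic enzyme gene Eno1 (0.98 and 0.82). Tubb2a was most like Metrn, the acyl-CoA thioesterase gene Acot7 and Nefl (0.98, 0.97 and 0.97, then 0.85, 0.81 and 0.71 without that library).

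Tubb2b was most like the phosphofructokinase gene Pfkp, Gbf1 and Hadha (0.98, 0.97 and 0.97, then 0.85, 0.81 and 0.82). Tubb4a was most like the alpha-tubulin gene Tuba1a, the glycosyltransferase gene Mgat1 and Thrsp (0.98, 0.97 and 0.97, then 0.65, 0.83 and 0.61). Tubb5 was most like Slc7a10, an amino acid transporter gene, Wbp1 and Nisch (0.97, 0.96 and 0.96, then 0.69, 0.79 and 0.71). Tubb6 was most like Usp35, Prr14 and the thioredoxin reductase gene Txnrd1 (0.94, 0.94 and 0.93, then 0.94, 0.93 and 0.93). The values for Tubb3 and Tubb6 were therefore nearly as high without the library that stood apart, while those for Tubb2a, Tubb2b, Tubb4a and Tubb5, and for Tubb4b with Eno1 and Nefl, were lower.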

How the data were processed

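The deposited table gives RSEM's expected count for each gene in 10 lumbar cord libraries, unscaled; the tool list in the submitters' processing notes names RSEM, and the values carry decimals. These notes also name STAR, edgeR 4.2.0 and the build mm10; strand setting and read filters are not stated in the sources used here. Rounding to whole numbers before testing affected 5.04% of values. Groups came from the sample titles. Genes were filtered with filterByExpr (minimum count 10, minimum total 15) in edgeR 4.0.16 (R 4.3.3), scaled with TMM factors and tested with the robust quasi-likelihood test without covariates, with Benjamini-Hochberg adjustment over all tested genes (threshold 0.05, two-sided). CPM use TMM-scaled sizes, and log2 CPM add a prior count of 2. Standard errors were derived from each fold change and the square root of F. Shares were computed from unrounded counts and tested with exact permutation tests over all 252 assignments (SciPy 1.17.1). Lengths and GC content came from GENCODE M21, for isotypes from the 1 RefSeq transcript the table lists per gene (a choice made after seeing the table); 99.7% of tested genes had a value. No pair of libraries within a group looked like a duplicate (chi-square between them over its degrees of freedom, 1.63 to 6.88). The test was checked on simulated counts. Alternatives used DESeq2 1.42.0 and limma 3.58.1, other scalings and filters, the GC and length correction, the replicate block and left-out libraries.

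The members, gene lists and tests were chosen with earlier results of these data known. Named genes were all isotypes and the 3 genes most like each isotype with at least 10 CPM. From each related list except the gamma-, delta- and epsilon-tubulins, up to 3 tested members of lowest p were named. All members with an unadjusted p under 0.05 were named as well. Ttc5 and the fold change of Tuba1a were added outside this rule after their values were seen. The oligodendrocyte marker list is not reported here.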

Additional observations from a re-analysis of the deposited data

Results flagged for a closer look

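Within each group of 5, the highest and lowest library of every tested isotype were compared with the others by Dixon's test, in CPM and in both kinds of share, 42 groups of values in all. The groups are not independent, as both kinds of share rest on the same counts and the abundant isotypes varied together through paclitaxel replicate 3. Independent groups would give about 1 such value in 20 by chance. The limit was passed 4 times. Paclitaxel replicate 3 accounted for 3 of these, with 329 CPM of Tubb2a (433 to 449 CPM in the other paclitaxel libraries), 97.2 CPM of Tubb2b (153 to 168 CPM) and 361 CPM of Tubb5 (438 to 460 CPM). The other was vehicle replicate 5, in which Tubb5 made up 9.49% of the pool per transcript length, against 8.97% to 9.11% in the other vehicle libraries.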

How the results depend on the processing

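In 156 of 156 alternative values the log2 fold changes of the isotypes stayed negative and above the adjusted threshold, over other scalings, filters, tests and left-out libraries, and 0 isotypes were called in each. Their sizes moved: with each library left out in turn they ran from -0.15 to -0.04 for Tubb2a, -0.22 to -0.05 for Tubb2b, -0.17 to -0.08 for Tubb3, -0.14 to -0.02 for Tubb4a, -0.17 to -0.03 for Tubb4b, -0.10 to -0.01 for Tubb5 and -0.39 to -0.19 for Tubb6, and limma-voom with sample quality weights gave -0.06 for Tubb4a, -0.11 for Tubb2b and -0.05 for Tubb5. At an unadjusted p under 0.05 the number of isotypes was 1 with all libraries, against 6.07% of all genes. The number was 0 in DESeq2 (4.3% of all genes), edgeR's likelihood ratio test (5.13%) and after the GC and length correction (4.63%). It was also 0 without both paclitaxel replicate 3 and vehicle replicate 4 (3.78%). With each library left out it ran from 0 to 2. It was 0 without paclitaxel replicate 3 (4.81%) or 4 (6.1%) or vehicle replicate 3 (3.82%), 4 (4.61%) or 5 (5.44%). It was 2 without paclitaxel replicate 2 (7.87%) or vehicle replicate 1 (9.78%). The cause was not tested.

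The direction of small share differences, none of them called, turned in places. With each library left out, the difference in share of CPM, paclitaxel minus vehicle in percentage points, ran from -0.163 to 0.0563 for Tubb2a, -0.523 to 0.0717 for Tubb3, -0.287 to 0.668 for Tubb4a and -0.394 to 0.0629 for Tubb4b, and per length from -0.168 to 0.0871, -0.538 to 0.0929, -0.232 to 0.715 and -0.459 to 0.0959. Without both paclitaxel replicate 3 and vehicle replicate 4 the Tubb2a and Tubb4b differences turned to 0.0438 and 0.0105 points of CPM and to 0.0658 and 0.0220 points per length. The mean length of all coding transcripts had been planned as the main length and was made an alternative after the table was seen. Using it turned no direction of a share difference.

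The replicate number was tried as a block although the labels do not say that it pairs libraries: same-numbered libraries had correlations of deviations from -0.10 to 0.14, over 0.1 in 2 of 5 pairs, and 2 of 5 paclitaxel libraries correlated best with their own number. With the block the log2 fold changes were -0.13 for Tubb2a, -0.19 for Tubb2b, -0.14 for Tubb3, -0.12 for Tubb4a, -0.14 for Tubb4b, -0.08 for Tubb5 and -0.30 for Tubb6. In that fit 0 isotypes passed, and 1 had an unadjusted p under 0.05, against 6.31% of all genes. Counting error was largest for Tubb6 among the tested isotypes.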
